A study of Mus musculus with 7 samples.

Results

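Splicing of 9 genes that build, cap, bundle or bind actin filaments was followed in mouse cortical neurons after a short depolarization. The genes were Nckap1, Abi1, Abi2, Enah, Cttn, Dbn1, Add1, Dmtn and Ablim1, out of 9056 genes with a splicing event in the data. They were named by symbol, after exon inclusion in KCl and Control neurons had been seen, so the KCl against Control values of these genes are given as a description. All rows of the deposited splicing tables that carried these symbols were taken, which gave 46 of 19447 rows for replicate 1 and 66 of 22703 rows for replicate 2. Of these, 35 events had unique coordinates present in both replicates, out of 11814 such events in all.

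The KCl neurons (2 libraries) were primary cortical cultures from wild-type ICR embryos of day 16, exposed at culture day 11 for 10 min to a mix with KCl depolarization buffer, which the study's design gives as 50 mM KCl, and collected after a further 24 h in their old medium. The Control neurons (2 libraries) were the same kind of culture, given a buffer with NaCl in place of KCl. H3K9me3, a histone mark of silenced chromatin, was measured by ChIP-seq in hippocampus of wild-type C57BL/6 mice 3 months old. The EE mice (2 libraries) spent 24 h in an enriched cage and then 1 week in a home cage, and the Home cage mice gave 1 library. The labels do not say whether the replicates were separate cultures or animals, so every error and p-value reflects the spread of these libraries alone, which may be technical.

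Actin filaments give axon growth cones and dendritic spines their shape. The WAVE complex, to which Nckap1 and the Abi proteins belong, turns on the branching of filaments by the Arp2/3 complex at the membrane; Ena/VASP proteins such as Enah lengthen filaments, and cortactin (Cttn) binds and steadies the branches. Drebrin (Dbn1) lies along filaments in spines, while adducin (Add1) and dematin (Dmtn) join filaments to the spectrin skeleton under the membrane. Many such genes carry short exons, often a multiple of 3 bases long, that are spliced in mainly in neurons.

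The 35 events comprised 25 cassette exons (included or skipped as a whole) and 10 events of other types: retained introns, shifted 5′ or 3′ splice sites, and pairs of exons of which only 1 is used. Add1 had 7 events, Enah 6, Abi1 and Abi2 5 each, Dbn1 4, Nckap1 and Cttn 3 each, and Ablim1 and Dmtn 1 each. The remaining rows were 26 found in 1 replicate's table only and 16 that shared coordinates with another row. Of the 25 cassette exons, 18 had a length that was a multiple of 3. The inclusion share is given below as the inclusion reads in percent of all reads of the event, and shares of different events are not compared, because effective lengths are not given. In 27 events every library had at least 10 reads and at least 1 library had a share between 5% and 95%. The 8 others included 7 with a share of 95% or more in every library, among them the exons of 94 and 140 bases of Nckap1 and the 111-base exon of Cttn at chromosome 7, 144452548. The eighth was a retained intron of Abi2, whose unspliced form spans 1904 bases, with 5 and 10 reads in KCl and 20 and 55 in Control.

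Reads on splicing events came to 3643165 and 4666850 in KCl replicates 1 and 2 and to 3566066 and 5385345 in Control replicates 1 and 2. The rows of the 9 genes held 13131 and 20183 of these reads in KCl, against 15588 and 26101 in Control. Among the 27 events the total per event ran between 14 and 1093 reads in KCl replicate 1, 34 and 1019 in KCl replicate 2, 22 and 1735 in Control replicate 1, and 26 and 1565 in Control replicate 2. Intervals of shares are 95% Wilson intervals and cover counting error only.

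Summed read levels of cell type marker lists differed between the groups, and this stands beside every result below. The cell makeup of the cultures itself was not measured. The 5 neuron markers that could be measured, of 10 listed, summed to 333 and 1457 CPM (event reads, scaled to equal library size) in KCl replicates 1 and 2, against 4646 and 4354 in Control replicates 1 and 2. All 5 had a lower estimate in KCl, led by Stmn2, a tubulin-binding protein of neurons, with 223 and 992 CPM in KCl against 3622 and 2991 CPM in Control. The oligodendrocyte lineage list (5 of 10 measured, 5 higher) summed to 1314 and 743 CPM in KCl, against 217 and 224 CPM in Control. The mesenchymal and vascular list (5 of 10 measured, 5 higher) summed to 2039 and 1792 CPM in KCl, against 313 and 426 CPM in Control. Most of that sum was Tagln, with 1810 and 1445 CPM in KCl against 277 and 311 CPM in Control. KCl replicate 1 thus had the lowest neuron marker sum and the highest oligodendrocyte and mesenchymal sums of the 4 libraries. Astrocyte markers (5 of 8 measured, 5 higher) summed to 2721 and 2078 CPM in KCl, against 2040 and 1518 CPM in Control. Most of that sum was Aldoc, with 1773 and 1397 CPM in KCl against 1556 and 1060 CPM in Control. The astrocyte marker Slc1a2 overlapped between the groups, with a log2 difference of 0.02. Progenitor markers (4 of 6 measured, 4 higher) summed to 403 and 467 CPM in KCl, against 136 and 257 CPM in Control. No measured marker was at 0 in any library, and none of 5 microglia markers had an event in both replicates. No marker passed edgeR's adjusted threshold. At an unadjusted p of 0.05 it called 4 neuron markers lower in KCl, beside 441 of all 6114 genes. Higher in KCl it called 4 oligodendrocyte, 3 mesenchymal, 2 astrocyte and 1 progenitor marker, beside 300 of all 6114 genes. In bulk RNA, fewer cells of a type and less RNA per cell cannot be told apart, and the part of these marker differences in the splicing and level results was not tested.

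**Figure D1:**
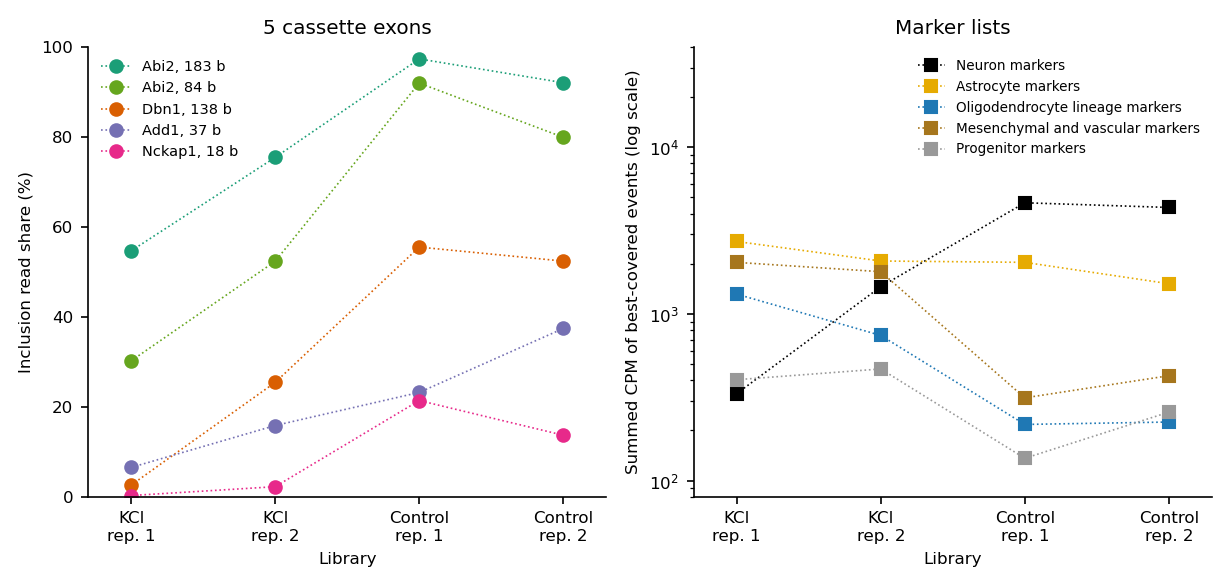
Left, inclusion share (% of event reads) of 5 cassette exons in KCl replicates 1 and 2 and Control replicates 1 and 2; right, summed CPM of marker lists in the same libraries on a log scale, with dotted lines joining the points of one exon or list. The 5 exons were taken from those with both KCl libraries below both Control libraries, so a KCl library is lowest in each by choice. KCl replicate 1 was the lower KCl library in these 5. Among the 12 named events of any type that lay lower in KCl, it was lowest in 9 and KCl replicate 2 in 2. The neuron marker sum was 333 CPM in KCl replicate 1, against 4646 and 4354 CPM in Control, and a link between the panels was not tested.

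Among the WAVE complex subunits, Nckap1, Abi2 and Abi1 each had at least 1 exon whose share did not overlap between the KCl and Control libraries. Nckap1 (Nap1), the scaffold subunit, had an 18-base cassette exon at chromosome 2, 80571213 to 80571230 (mm10). It was included in 1 of 391 reads in KCl replicate 1 and 4 of 180 in KCl replicate 2, against 37 of 173 in Control replicate 1 and 19 of 139 in Control replicate 2. The share averaged 1.24% ± 1.39 in KCl and 17.5% ± 5.46 in Control (SD, n = 2 each). Counting error alone left the groups apart: the interval reached 1.43% and 5.57% in KCl and began at 15.9% and 8.93% in Control. The log2 odds ratio of inclusion, KCl over Control, was -4.41 (SE 0.89), and it was -3.18 (SE 0.90) without KCl replicate 1. In the authors' deposited table the FDR of this exon was 0 for replicate 1 and 0.0551 for replicate 2.

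Abi2, an Abi subunit that links the WAVE complex to kinases and adaptors, had 3 cassette exons whose shares lay apart between KCl and Control, not all in the same direction. The 183-base exon at chromosome 1, 60450071 to 60450253, had 117 of 214 and 249 of 330 inclusion reads in KCl (54.7% and 75.5%), against 552 of 567 and 603 of 655 in Control (97.4% and 92.1%). Its log2 odds ratio was -3.34 (SE 0.75), or -2.66 (SE 0.87) without KCl replicate 1. An 84-base form of it, which starts at 60450170 and has the same end and the same skipping reads, had 42 of 139 and 89 of 170 in KCl, against 172 of 187 and 207 of 259 in Control. Set against skipping reads alone, the 84-base form had a share of 92.0% and 79.9% in Control, while in KCl replicate 1 it had 30.2% (interval 23.2% to 38.3%). An alternative 3′ splice site whose long form is the 183-base exon was listed for replicate 2 only. The long form had 85 of 87 reads there in KCl and 204 of 205 in Control, so few reads were particular to a shorter form. The 84-base row may thus largely count the same inclusion reads as the 183-base exon, which was not tested. The 147-base exon at lower coordinates, 60447260 to 60447406, lay the other way. It had 113 of 116 and 273 of 310 inclusion reads in KCl (97.4% and 88.1%), against 133 of 194 and 324 of 426 in Control (68.6% and 76.1%), with a log2 odds ratio of 2.23 (SE 0.74), or 1.48 (SE 0.69) without KCl replicate 1 and 3.78 without KCl replicate 2. Thus at neighbouring exons of Abi2 the KCl libraries had more inclusion at the 147-base exon and less at the next along the chromosome. The authors' deposited table gave FDRs of 0 and 4.82e-06 for the 183-base exon, 0 and 0.000161 for the 84-base form, and 1.77e-07 and 0.154 for the 147-base exon. An 87-base exon at 60464529, had shares of 33.9% and 26.1% in KCl, against 15.8% and 29.6% in Control, which overlap.

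Abi1, the paralogue of Abi2, had a pair of exons used in place of each other at chromosome 2. The tables list an 87-base exon at 22950184 to 22950270 and an exon of 177 bases, or 174 bases at an alternative 3′ splice site, that begins at 22953435. Shared counts with the cassette rows show that inclusion reads of such a pair belong to the exon listed second. Reads of the 177-base exon made up 125 of 159 and 237 of 303 in KCl (78.6% and 78.2%), against 268 of 290 and 351 of 388 in Control (92.4% and 90.5%). The 174-base exon gave 136 of 170 and 211 of 277 in KCl, against 281 of 303 and 358 of 395 in Control. The log2 odds ratios were -1.55 (SE 0.64) and -1.63 (SE 0.64), so the 87-base exon had a larger part in KCl than in Control, in both libraries and by much the same amount in each. The authors' deposited table gave FDRs of 0.0402 and 0.0616 for the 177-base exon and 0.0568 and 0.00798 for the 174-base exon.

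A cassette row of the same 87-base exon, one of 2 rows that share these coordinates, had 71 of 130 and 150 of 275 inclusion reads in KCl (54.6% and 54.5%), against 59 of 231 and 104 of 329 in Control (25.5% and 31.6%). Its FDRs in the authors' deposited table were 0.000584 and 0.00158. The other row of the pair was included in at least 94.4% of reads in every library. The choice between the 177-base and 174-base ends overlapped between the groups, with 57 of 125 and 102 of 178 reads of the longer form in KCl, against 87 of 187 and 117 of 241 in Control. A 15-base exon of Abi1 at 22963214 also overlapped, with 22 of 26 and 20 of 34 reads in KCl against 17 of 23 and 21 of 26 in Control.

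Enah (Mena), the Ena/VASP protein that keeps filament ends growing, had a 12-base exon at chromosome 1, 181931174 to 181931185. No read included it in KCl, 0 of 125 and 0 of 231, against 4 of 67 and 6 of 120 in Control (5.97% and 5.00%). A count of 0 allows a share of up to 2.4% and 1.30% in KCl (3 reads of the total). The Wilson intervals reached 2.98% and 1.64% in KCl and began at 2.35% and 2.31% in Control, so that of KCl replicate 1 overlaps those of Control, and the difference is at the limit of this depth. A 57-base exon at 181935660, which shares its skipping reads with the 12-base exon, had 1 of 126 and 0 of 231 in KCl, against 0 of 63 and 9 of 123 in Control. That exon was seen mainly in Control replicate 2, and the groups overlap. An alternative 3′ splice site, whose long form spans 843 bases (181921658 to 181922500), was used in 826 of 1093 and 973 of 1019 reads in KCl (75.6% and 95.5%), against 730 of 790 and 1529 of 1565 in Control (92.4% and 97.7%). KCl replicate 1 stood below the other 3 libraries there, and without it the log2 odds ratio was -0.08 (SE 0.91) in place of -1.52 (SE 0.89). In the authors' deposited table its FDR was 3.22e-14 for replicate 1 and 1 for replicate 2.

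Cttn (cortactin), which binds Arp2/3 and, through a row of repeats, filaments, had few reads at its 85-base exon. This exon, at chromosome 7, 144449937, was included in 3 of 33 and 0 of 47 reads in KCl, against 2 of 22 and 6 of 36 in Control. Set against the 111-base exon at 144450978 to 144451088, of which it is the mutually exclusive partner, reads of the 111-base exon were 16 of 19 and 53 of 53 in KCl, against 44 of 46 and 63 of 69 in Control. Both events overlapped between the groups. The cassette row of the 111-base exon that shares its skipping reads with the 85-base exon had 16 of 46 and 53 of 100 inclusion reads in KCl (34.8% and 53.0%), against 44 of 64 and 63 of 93 in Control (68.8% and 67.7%). The libraries of that row were apart, but its FDRs in the authors' deposited table were 0.220 and 1. Another row of the same 111-base exon, found for replicate 2 only, lay the other way, with 7 of 7 inclusion reads in KCl against 9 of 20 in Control (FDR 0.821 in the authors' deposited table).

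Dbn1 (drebrin) had the most reads behind a separation of the groups. Its adult neuronal form, drebrin A, differs from embryonic drebrin E by an in-frame insert, which the tables do not name. The 138-base cassette exon at chromosome 13, 55476636 to 55476773, had 21 of 815 inclusion reads in KCl replicate 1 and 229 of 901 in KCl replicate 2, against 963 of 1735 and 734 of 1401 in Control. The share was 14.0% ± 16.2 in KCl and 53.95% ± 2.20 in Control (SD, n = 2 each). The Control libraries lay close together, whereas the KCl libraries, at 2.58% and 25.4%, differed from each other by far more than counting error (intervals 1.69% to 3.91% and 22.7% to 28.4%). The log2 odds ratio was -3.48 (SE 0.93), with -1.78 (SE 0.66) without KCl replicate 1 and -5.46 without KCl replicate 2. In the authors' deposited table the FDR was 0 in both replicates.

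The same stretch of Dbn1 was counted in other ways. An alternative 3′ splice site has a long form of 628 bases (55476146 to 55476773). On this minus-strand gene the long form starts with the 138-base exon, and it has the same skipping reads as that exon. The long form was used in 42 of 836 and 168 of 840 reads in KCl, against 633 of 1405 and 511 of 1178 in Control. As a retained intron, a form with the same outer coordinates had 29 of 38 and 72 of 206 reads in KCl (76.3% and 35%), against 111 of 554 and 166 of 555 in Control (20.04% and 29.9%). The retained form was thus a larger part of the reads that join or span this intron in KCl, mainly in replicate 1 and on fewer reads in all. In KCl replicate 2 the interval, 28.8% to 41.7%, overlapped that of Control replicate 2, 26.2% to 33.8%. The log2 odds ratio of the retained form, 1.73 (SE 0.77), became 0.71 (SE 0.71) without KCl replicate 1. An alternative 3′ splice site with a long form of 106 bases at 55474456 had shares of 33.0% and 31.9% in KCl, against 40.2% and 31.5% in Control, which overlap.

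Add1 (adducin), which caps the fast-growing ends of filaments and recruits spectrin, had 3 events with the KCl libraries below both Control libraries, of which a pair is nearly the same event. The 37-base exon at chromosome 5, 34629136 to 34629172, had 16 of 246 and 47 of 297 inclusion reads in KCl (6.5% and 15.8%), against 48 of 207 and 95 of 254 in Control (23.2% and 37.4%). Its log2 odds ratio was -1.84 (SE 0.69), or -1.19 (SE 0.74) without KCl replicate 1. A 34-base form with the same end and skipping reads gave -1.88 (SE 0.70). The length of neither is a multiple of 3. The authors' deposited table gave FDRs of 0.00124 and 0.000375 for the 37-base exon.

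An alternative 5′ splice site of Add1, whose long form spans 345 bases (34616563 to 34616907), was used in 48 of 350 and 95 of 354 reads in KCl, against 284 of 501 and 165 of 428 in Control. The share averaged 20.3% ± 9.28 in KCl and 47.6% ± 12.8 in Control (SD, n = 2 each), with 56.7% and 38.6% in the Control libraries. In the authors' deposited table its FDR was 0 for replicate 1 and 1 for replicate 2. The other cassette exons of Add1 were minor forms. The 279-base exon at 34598169 had shares of 9.85% and 14.9% in KCl against 13.4% and 18.5% in Control, its 178-base form 3.17% and 10.9% in KCl against 4.80% and 12.0% in Control, and the 87-base exon at 34620832 3.11% and 10.7% in KCl against 5.96% and 9.21% in Control. In these 3 exons replicate 1 was lower than replicate 2 in both groups, and the groups overlap. A 50-base exon at 34630235 had 1 inclusion read in each KCl library, of 16 and 48 reads, and none of 48 and 93 in Control, too few to compare.

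Of the remaining bundling and linking proteins, Ablim1, a LIM-domain protein with a villin headpiece that binds filaments, had a 105-base exon at chromosome 19, 57051130 to 57051234. It was included in 11 of 14 and 33 of 41 reads in KCl (78.6% and 80.5%), against 35 of 35 and 85 of 90 in Control (100% and 94.4%). The log2 odds ratio was -2.70 (SE 1.12), but -6.28 (SE 2.11) without Control replicate 2, which leaves Control with no skipping read. It rests on few reads: the interval of KCl replicate 1 ran between 52.4% and 92.4% and overlaps that of Control. Dmtn (dematin), a bundling protein of the spectrin skeleton, had a 75-base exon at chromosome 14, 70617955 to 70618029, with 11 of 25 and 25 of 75 inclusion reads in KCl, against 99 of 343 and 116 of 320 in Control. The share was 38.7% ± 7.54 in KCl and 32.6% ± 5.22 in Control (SD, n = 2 each), and the libraries overlapped.

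**Figure D2:**
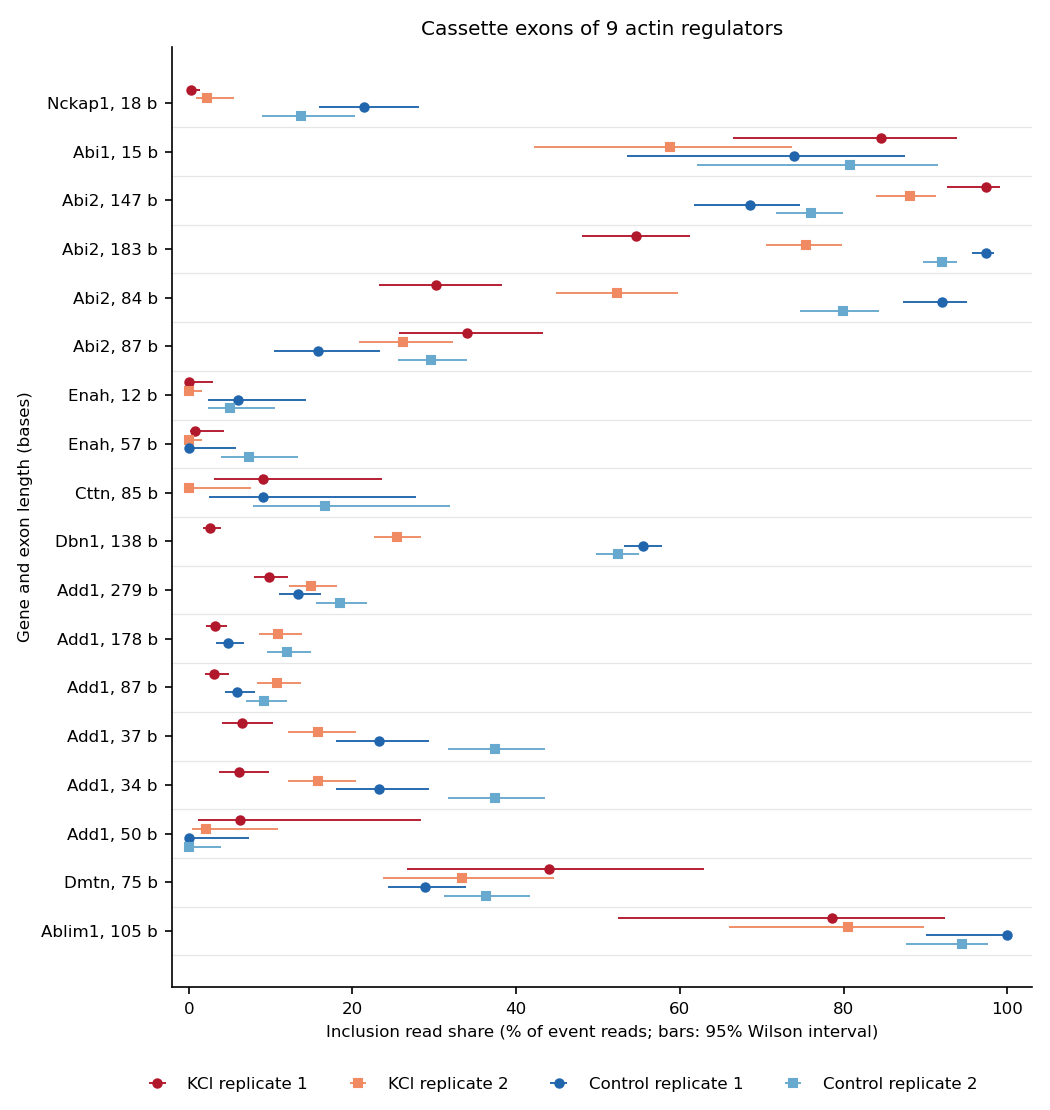
Inclusion share (x axis, % of event reads) of the 18 cassette exons with enough reads, by gene and exon length in bases, with 4 points per exon for KCl replicates 1 and 2 and Control replicates 1 and 2 and bars for the 95% Wilson interval. The 138-base exon of Dbn1 shows the KCl libraries at 2.58% and 25.4% and the Control libraries at 55.5% and 52.4%, and the 147-base exon of Abi2 lies the other way.

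Over the 27 events, the KCl libraries were both below the Control libraries in 12, both above in 3, and overlapped in 12. No share over all events is given for this set, whose filter differs from that of the events tested. KCl replicate 1 lay farther from the Control mean than KCl replicate 2 in 19 events and nearer in 7. The median distance from the Control mean was 11.7 percentage points for KCl replicate 1 and 12.9 for KCl replicate 2, against 6.86 between the Control libraries and 9.32 between the KCl libraries. In the 32 events tested, whose 2 forms each averaged 1 read or more, the groups were apart in 20, 18 lower in KCl in 7 genes and 2 higher; over all 10088 events tested they were apart in 40.7% (19.5% lower, 21.2% higher). KCl replicate 1 was the lowest in 13 of the 18. Since the genes were chosen on this contrast, nothing is read from these counts.

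No event of the 9 genes passed edgeR's quasi-likelihood test at an adjusted p of 0.05, and neither did any event in the data (0%). At an unadjusted p of 0.05 it called 18 of 32 (16 lower in KCl, 2 higher), beside 9.2% of all events (4.97% lower, 4.23% higher). The 18 are not all separate. Enah forms of 111, 303 and 843 bases, all near full inclusion, each had 4 and 2 skipping reads in KCl and 0 and 0 in Control. Pairs of called events in Abi1, Abi2, Add1, Dbn1 and Enah shared skipping reads. The 57-base exon of Enah was called although its groups overlap. At that level DESeq2 called 14 (5.95% of all) and limma 12 (10.7% of all), and neither called any after adjustment. In the authors' deposited tables, an FDR under 0.05 was reached in both replicates by 6 of the 35 events, beside 1.03% of all, in replicate 1 by 12 (2.89% of all) and in replicate 2 by 7 (1.29% of all). The 6 were the 183-base and 84-base exons of Abi2, the 37-base and 34-base exons of Add1, and the 138-base exon and 628-base 3′ splice site form of Dbn1, which are 3 pairs that share skipping reads. Those FDRs compare a KCl library with a Control library and rest on reads, not on replicates.

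The level of each gene was read from its best-covered event, in CPM of event reads. Events differ in length, so levels are compared between libraries and not between genes. The total of an event adds its inclusion and skipping reads, so a difference in inclusion can itself change this level. Dmtn had 11.3 and 28.8 CPM in KCl, against 163.7 and 112.9 CPM in Control, a log2 difference of -2.78 (SE 0.58). Abi2 had 96.4 and 126.8 CPM in KCl, against 270.5 and 231.2 CPM in Control (-1.17 on the log2 scale, SE 0.41). Dbn1 had 367 and 346 CPM in KCl, against 828 and 494.5 CPM in Control (-0.89, SE 0.43). This is the total of its 138-base exon. Before scaling, its skipping reads were 794 and 672 in KCl and 772 and 667 in Control. Its inclusion reads were 21 and 229 in KCl, against 963 and 734 in Control. In these 3 genes both KCl libraries lay below both Control libraries. Abi1 was also apart, with 76.6 and 106.5 CPM in KCl against 144.6 and 139.4 CPM in Control (-0.63, SE 0.42), and so was Ablim1, with 6.3 and 15.8 CPM in KCl against 16.7 and 31.8 CPM in Control (-1.13, SE 0.62).

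The other 4 genes lay close to Control on this measure. Nckap1 had 289.7 and 376.7 CPM in KCl, against 355 and 494.8 CPM in Control. Enah had 464.5 and 425.1 CPM in KCl, against 383.6 and 604.3 CPM in Control. Add1 had 365.9 and 213.7 CPM in KCl, against 327.8 and 212.1 CPM in Control, and Cttn 215.4 and 173 CPM in KCl, against 184.2 and 162 CPM in Control. Their log2 differences were -0.35, -0.15, 0.10 and 0.17, with SEs of 0.40 to 0.46. Nckap1, Enah and Add1 overlapped between the groups, and so did Cttn.

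These levels depended on the event read. The other cassette exons of Abi2 gave log2 differences of -0.50 (147 bases, groups overlap), -0.50 (84 bases) and -0.67 (87 bases, groups overlap), smaller than that of the 183-base exon. The events of Nckap1 lay between -0.47 and 0.90, those of Enah between -0.15 and 1.00, and those of Dbn1 between -2.25 and -0.63. Those of Abi1 lay between -0.86 and 0.30, those of Add1 between -1.11 and 0.26, and those of Cttn between -0.67 and 0.50. These last genes had events apart in both directions: 4 lower and 1 higher in KCl for Abi1, 1 and 2 for Add1, and 1 and 1 for Cttn.

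Over all 35 events of the 9 genes the total was lower in KCl in 23 and higher in 12, and the groups were apart in 22 (16 lower, 6 higher), beside 41.8% of all 11814 events. None passed edgeR's adjusted threshold, as none did in the data (0%). At an unadjusted p of 0.05 it called 4, all lower in KCl (10.9% of all events in either direction, 6.85% lower): the events of Dmtn and of the 183-base exon of Abi2, and the retained introns of Abi2 and Dbn1. At that level DESeq2 called 4 (10.3% of all) and limma 4 (11.3% of all). The Dmtn total alone passed DESeq2 after adjustment (adjusted p = 0.00721), beside 0.626% of all events, and none passed limma (0%), while edgeR's quasi-likelihood test gave an adjusted p of 0.411. Neuron marker sums were 333 and 1457 CPM in KCl against 4646 and 4354 CPM in Control, and their part in these levels was not tested.

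**Figure D3:**
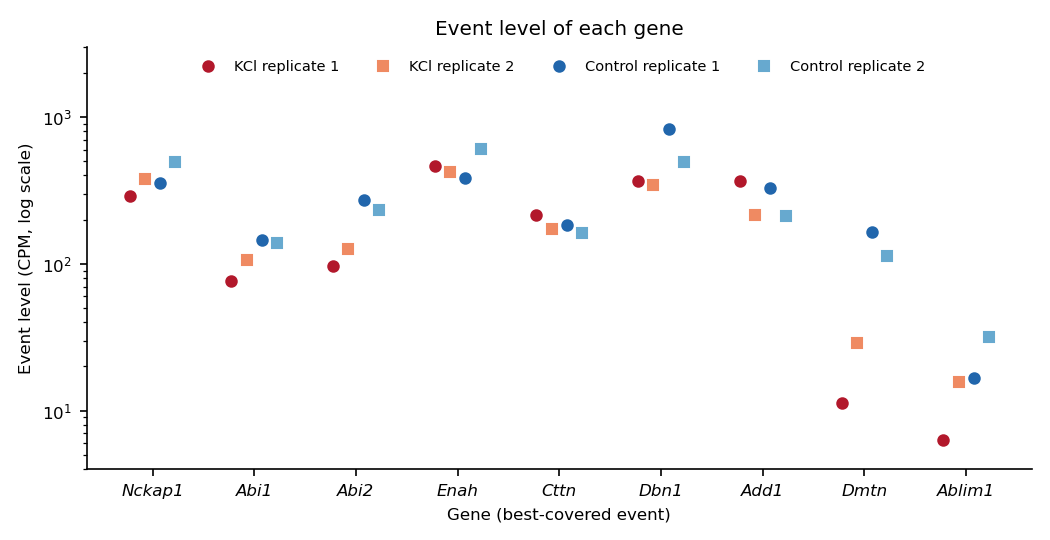
Level of the best-covered event of each gene (CPM of event reads, log scale) in KCl replicates 1 and 2 and Control replicates 1 and 2. The KCl points lie below the Control points for Abi1, Abi2, Dbn1, Dmtn and Ablim1, with the widest gap for Dmtn (11.3 and 28.8 CPM in KCl against 163.7 and 112.9 CPM in Control).

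Other actin genes were taken from 5 lists that hold none of the 9 genes. Together these had 81 testable events in 46 genes. None passed edgeR's quasi-likelihood test after adjustment. At an unadjusted p of 0.05, 8 were higher and 13 lower in KCl, beside 4.23% and 4.97% of all events. The median log2 odds ratio was -0.23, beside 0.04 over all events. The WAVE list (15 events, 4 higher and 2 lower at that level, median -0.77) was led by Srgap2, a membrane-bending Rac regulator, and Cyfip1, the WAVE subunit that holds Rac. A 154-base exon of Cyfip1 at chromosome 7, 55898238, had shares of 93.9% and 98.9% in KCl against 84.9% and 75.2% in Control. The adducin, spectrin and band 4.1 list (18 events, 0 higher and 6 lower, median -1.001) was led by Epb41l1, a neuronal band 4.1 protein, whose 36-base exon at chromosome 2, 156511785, had shares of 13.0% and 53.7% in KCl against 82.1% and 87.8% in Control. In the Ena/VASP and formin list (11 events, 0 higher and 2 lower, median 0.40) a 126-base exon of the formin Fmnl2 at chromosome 2, 53128717, had shares of 11.4% and 29.7% in KCl against 53.7% and 44.97% in Control.

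The Arp2/3 list (6 events, 1 higher and 2 lower, median -0.28) held exons near full inclusion, such as a 177-base exon of the subunit Arpc5 at 99.0% and 99.3% in KCl against 100% and 100% in Control. In the list of filament binding and severing proteins (31 events, 3 higher and 1 lower, median 0.01) the 113-base exon of Capzb, the beta subunit of capping protein, had shares of 81.1% and 70.6% in KCl against 42.8% and 46.8% in Control. That exon separates isoforms that differ between muscle and other tissues. In Tpm1, a tropomyosin that coats filaments, the use of an alternative 3′ splice site lay lower in KCl, at 63.4% and 73.3% against 94.8% and 90.5% in Control. In the actin lists as a whole, 50 genes had a level, 24 higher and 26 lower in KCl. At an unadjusted p of 0.05 edgeR called 6 higher and 7 lower, beside 300 and 441 of all 6114 genes, and 0 after adjustment. The median log2 difference was -0.07, beside 0.04 over all genes.

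Proteins that regulate neuronal exons were listed as well. Their own exons were close to even (35 events, 0 higher and 1 lower at an unadjusted p of 0.05, median log2 odds ratio 0.00). Of 12 with a level, 4 were higher and 8 lower in KCl (median log2 difference -0.68). At an unadjusted p of 0.05 edgeR called 3 lower, beside 441 of all 6114 genes, and none after adjustment. Rbfox3 (NeuN), a neuronal splicing factor, had 16.7 and 75.3 CPM in KCl, against 100.2 and 200.5 CPM in Control. Khdrbs3, a neuronal RNA-binding protein of the STAR family, had 175 and 204 CPM in KCl, against 475 and 340 CPM in Control. Rbfox1, the other gene called lower at that level, had 2.25 and 10.8 CPM in KCl, against 31.0 and 19.1 CPM in Control. Ptbp1, which represses neuronal exons in other cells, had 89.2 and 136.5 CPM in KCl, against 46.8 and 73.8 CPM in Control. Its log2 difference of 0.90 (SE 0.47) was not called (edgeR unadjusted p = 0.0942). Rbfox3 is also a neuron marker, so its level is not independent of the neuron marker list.

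H3K9me3 over the 9 genes was measured in another tissue and played no part in choosing them. Signal is given as a multiple of the library's median gene, over gene models of GRCm38.p6. None of the 9 genes passed limma's adjusted threshold for EE against Home cage (0 of 9, and 0 of 9 at an unadjusted p of 0.05), beside 0.187% and 6.96% of 43372 gene models. With 1 Home cage library, its spread was taken to be like that of the EE libraries. Dbn1 had signal of 1.18 and 1.29 in EE, against 0.847 in Home cage, on 78 and 57 fragments in EE against 26 in Home cage. Its log2 difference of 0.49 (SE 0.16, n = 2 EE and 1 Home cage, limma adjusted p = 0.765) was the largest of the 9, but the counting interval of the Home cage value, 0.554 to 1.24, covers the EE value of replicate 1. Dmtn lay the other way, with 0.886 and 1.04 in EE against 1.24 in Home cage (log2 difference -0.33, SE 0.19, n = 2 EE and 1 Home cage, limma adjusted p = 0.848).

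The other 7 genes differed less. Nckap1 had 0.806 and 0.855 in EE and 0.789 in Home cage, Abi1 0.875 and 0.794 in EE and 0.831 in Home cage, and Abi2 0.741 and 0.908 in EE and 0.890 in Home cage. Enah had 0.827 and 1.05 in EE and 0.881 in Home cage, Cttn 1.02 and 1.10 in EE and 1.08 in Home cage, and Add1 0.792 and 0.849 in EE and 0.888 in Home cage. Ablim1 had 1.02 and 1.01 in EE and 0.987 in Home cage. All 9 genes thus lay near the median gene, whose quartiles were 0.753 and 1.34 in EE replicate 1, 0.758 and 1.28 in EE replicate 2, and 0.704 and 1.39 in Home cage, apart from Abi2 in EE replicate 1 and Dbn1 in EE replicate 2, which fell just outside. No value of the 9 genes exceeded 1.29 times the median gene.

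**Figure D4:**
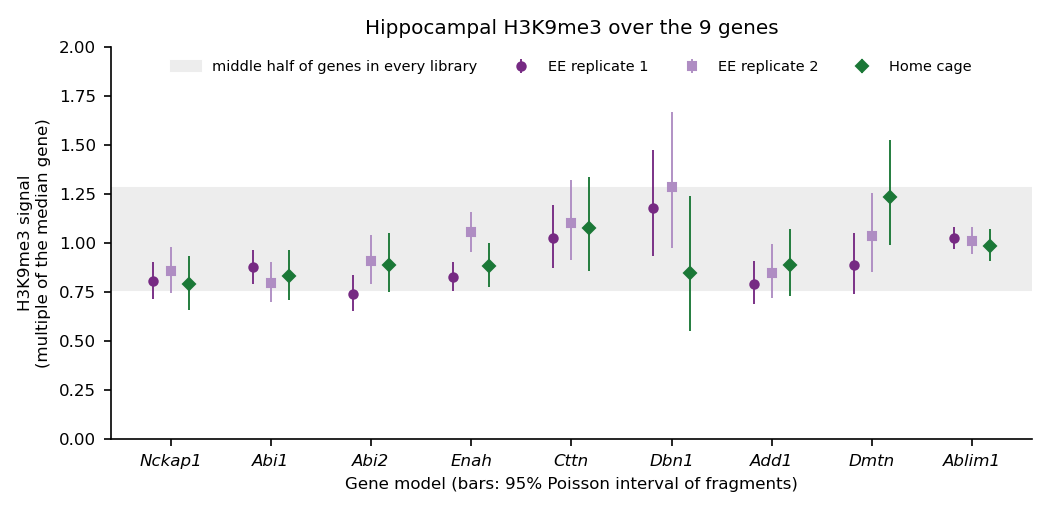
Hippocampal H3K9me3 signal over each gene model (multiple of the library's median gene) in EE replicates 1 and 2 and Home cage, with bars for the 95% Poisson interval of the fragments and a grey band for values within the quartiles of every library. Dbn1 shows the widest gap, 1.18 and 1.29 in EE against 0.847 in Home cage, with overlapping bars.

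Start sites in the RefSeq promoter table were found for 5 of the 9 genes (Enah, Abi1, Add1, Dbn1 and Ablim1). In a window of 2 kb around the start, Ablim1 had the highest signal of the 5, at 1.42 and 2.27 times the median start window in EE and 1.76 in Home cage, on 12 and 14 fragments in EE and 7 in Home cage. Dbn1 had 0.861 and 1.39 in EE and 0.76 in Home cage, on 7 and 8 fragments in EE and 3 in Home cage. These counts are too low to tell EE from Home cage at a start site. The 250 bases before these starts (RefSeq, GRCm38.p6, gene orientation) are shown, with CpG dinucleotides in capitals, because Dbn1 had the largest H3K9me3 difference over the gene and Ablim1 the highest signal at its start; both were chosen after their values were seen. Both lie on the minus strand, Dbn1 at chr13:55488077-55488326 and Ablim1, at the first of its listed starts, at chr19:57314920-57315169.
Dbn1: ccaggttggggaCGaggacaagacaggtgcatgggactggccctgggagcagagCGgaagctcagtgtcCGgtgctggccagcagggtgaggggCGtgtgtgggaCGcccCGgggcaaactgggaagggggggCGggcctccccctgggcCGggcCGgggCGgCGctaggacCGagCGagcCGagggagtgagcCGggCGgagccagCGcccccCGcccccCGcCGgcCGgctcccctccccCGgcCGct
Ablim1: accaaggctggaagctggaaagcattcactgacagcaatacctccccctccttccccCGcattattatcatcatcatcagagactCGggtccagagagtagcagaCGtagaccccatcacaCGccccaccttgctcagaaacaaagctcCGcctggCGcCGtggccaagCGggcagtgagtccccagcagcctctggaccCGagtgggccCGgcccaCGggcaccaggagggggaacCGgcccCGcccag
The stretch before Dbn1 held 23 CpG (the letters CG, read on this strand, and the same on the other), and 13.3% of the 32851 promoters in the table hold as many or more in these 250 bases. The stretch before Ablim1 held 13, and 31.5% of promoters hold as many or more. The median over all promoters was 6.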

How the data were processed

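RNA was measured in 2 KCl and 2 Control libraries and H3K9me3 in 2 EE libraries and 1 Home cage library, grouped by title. Per the file headers, the deposited splicing tables hold whole-number counts of inclusion reads and skipping reads per event. The authors deposited p-values and FDRs beside them, each for a KCl library against the Control library of the same number. For ChIP the authors deposited a coverage signal, whose values are whole multiples of that of 1 fragment in 100% of cases, giving 13017447 and 8060241 fragments in EE and 6188698 in Home cage. The submitters' processing notes name CASAVA 1.7, BWA 0.7.12, MACS2, TopHat2 and mm10, with no role. How events were counted, on which annotation and with which use of strand, is not given in the sources used here. In the replicate 1 Control table, 2 columns that repeat KCl counts were not used.

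Event starts were converted to count from 1. Rows that share coordinates (2634 in replicate 1, 3120 in replicate 2) were left out of the fits. edgeR 4.0.16 (quasi-likelihood, R 4.3.3) tested the odds of inclusion, in a model of library, form and the interaction of form with KCl, where each form averaged 1 read or more, and event totals after TMM scaling. DESeq2 1.42.0, limma 3.58.1 with a pseudocount of 0.5, a replicate block, other filters and scalings, summed rows and leaving out each library were alternatives. H3K9me3 used limma with trend on log2 of the signal in median genes plus 0.1, over gene models of at least 500 bases. Benjamini-Hochberg adjustment ran over all features, at 0.05. Fits were tested on simulated data. The named events are those with at least 10 reads in every library and a share of 5% to 95% in at least 1; from other lists, up to 3 genes per direction with the smallest unadjusted p could be named. The genes, lists and rules were chosen with earlier results of these data known. Tables and figures were made with Python 3.11.15, with pandas 2.3.3, numpy 2.4.6, matplotlib 3.10.9 and scipy 1.17.1.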

Additional observations from a re-analysis of the deposited data

How the results depend on the processing

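Replicate numbers were not shown to pair the libraries: deviations from group means correlated at 0.0573 for the odds of inclusion and 0.615 for event levels, over 2 pairs. With the replicate block, 7 events of the 9 genes passed for splicing and 6 for level, in place of 0. In the actin lists 9 events and 17 genes passed, in place of 0. The share of all events that passed with the block is not given, so nothing is read from these counts. The 7 splicing events included the 18-base exon of Nckap1, the 12-base exon of Enah, and the 147-base, 183-base and 84-base exons of Abi2. The others were the 138-base exon and 628-base 3′ splice site form of Dbn1. DESeq2 called 1 event level (Dmtn) and 1 actin list level. Leaving out 1 library each gave 0 to 0 splicing calls in the 9 genes and in the lists, 0 to 2 level calls in the 9 genes (2 without KCl replicate 2, 1 without Control replicate 2), 0 to 6 level calls in the lists (6 without KCl replicate 2) and 23 to 29 events with groups apart, in place of 20; that count was chosen after seeing the data, and fewer libraries make groups easier to keep apart. With a mean of at least 10 reads of each form, fewer events remained and 12 were apart.

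Log2 estimates of 1 event or gene that changed sign, all of them uncalled, were as follows; the cause was not tested. Leaving out 1 library each gave, for splicing in Add1, -1.37 to 0.53, with 0.37 without Control replicate 2, for the 178-base exon, and -1.32 to 0.58, with 0.045 without Control replicate 2, for the 87-base exon. It gave -0.48 to 0.065 for the 106-base site of Dbn1, -0.11 to 0.57 for the 3′ splice site of Abi1, -1.25 to 0.67 for its 15-base exon, and -1.37 to 4.98, with -0.14 without Control replicate 2, for the exon pair of Cttn. For levels it gave -0.34 to 0.48 for Add1 (-0.18 without Control replicate 2), -0.011 to 0.32 for Cttn and -0.42 to 0.21 for Enah. For H3K9me3 without EE replicate 1 and without EE replicate 2 in turn, it gave -0.058 and 0.068 for Abi1, 0.026 and -0.24 for Abi2, 0.033 and -0.067 for Cttn, and 0.23 and -0.082 for Enah. Abi1 also gave -0.52 around the gene start and -0.0037 with no minimum length. The other values of single events and genes kept their sign (353 on the same side of the threshold, 12 newly past it).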
